A study of Homo sapiens with 24 samples.

Results

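Ribosome biogenesis genes code for RNA polymerase I, its factors and the nucleolar proteins that cut, modify and assemble its transcript into ribosomal subunits. A list of 48 such genes was followed in 2 human prostate cancer cell lines, as a group often taken as a readout of the transcription factor MYC. Each gene was represented by 1 probe set annotated to that gene alone, the one with the highest mean over all 24 arrays, which gave 41 of the 48 genes out of 19775 genes in all. NOP56, DKC1, BOP1 and PPAN had only probe sets that name several genes, and GNL3, DDX18 and EBNA1BP2 had no entry in the probe table used, so these 7 were not analysed here. All 41 genes lay above the array median on at least 3 of the 12 arrays of either line, and all were tested.

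Expression had been measured on 24 Affymetrix HG-U133 Plus 2.0 arrays, 12 per line, from total RNA. VCaP cells, which carry a TMPRSS2-ERG fusion, had received small interfering RNA against the ETS transcription factor ERG (siERG) or a control (siControl). LNCaP cells, which carry a rearranged ETV1, had received short hairpin RNA against this related factor (shETV1) or a control, named shControl in the titles and siControl in another label. After 24 h of RNA interference and 2 days without androgen, cells were kept for 16 h with ethanol vehicle (EtOH) or 10 nM dihydrotestosterone (DHT), the main tissue androgen. The 8 groups (siControl, siERG, shControl and shETV1, each with EtOH and with DHT) held 3 biological replicates each, A to C, and 3 arrays per group set how precise a value can be. Each line stands for 1 patient's tumour, both knockdowns were partial, and the labels name neither the RNA sequences nor how many were used.

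RNA polymerase I copies the ribosomal DNA repeats into a long precursor, which small nucleolar ribonucleoproteins modify and which large assemblies then cleave into the RNAs of the small and the large subunit. The box C/D particles carry the methyltransferase FBL, and the box H/ACA particles guide pseudouridine formation. MYC, a transcription factor that binds the E-box CACGTG, is known to raise many of these genes in growing cells, and in prostate cancer cells both MYC and androgen have been tied to growth.

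CACGTG, a palindrome that reads alike on both strands, was searched in RefSeq promoter windows of build GRCh38.p14, from 250 bases before to 50 bases after each annotated start. Of the 48 genes 39 had a window, and 17 of these (43.6%) held the motif in at least 1 window, against 10.9% of 15843 protein-coding genes. Stretches of 100 bases upstream of an annotated start are shown for 6 measured genes, because the first 4 rose with DHT in at least 1 line and the last 2 passed the threshold in no comparison within a line. The motif is in capitals, and each stretch is written 5′ to 3′ on the strand of the gene.
DDX21, chr10:68956547-68956646, plus strand: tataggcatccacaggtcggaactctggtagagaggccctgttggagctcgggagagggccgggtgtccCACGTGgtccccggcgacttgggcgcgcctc
UTP20, chr12:101280005-101280104, plus strand: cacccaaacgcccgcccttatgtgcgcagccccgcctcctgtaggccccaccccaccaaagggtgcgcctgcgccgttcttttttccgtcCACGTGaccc
IMP4, chr2:130342647-130342746, plus strand: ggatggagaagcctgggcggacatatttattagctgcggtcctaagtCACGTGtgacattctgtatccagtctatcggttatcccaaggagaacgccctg
UTP14A, chrX:129905914-129906013, plus strand: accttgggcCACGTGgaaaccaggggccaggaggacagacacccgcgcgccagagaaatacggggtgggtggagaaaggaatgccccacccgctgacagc
NOP10, chr15:34343137-34343236, minus strand: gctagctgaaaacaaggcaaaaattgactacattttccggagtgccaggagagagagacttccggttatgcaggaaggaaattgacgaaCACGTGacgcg
UTP18, chr17:51260410-51260509, plus strand: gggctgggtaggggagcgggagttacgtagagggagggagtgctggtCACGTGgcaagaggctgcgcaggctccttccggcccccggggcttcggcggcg
The motif starts 31 bases before an annotated start in DDX21, 10 bases before the start in UTP20 and 11 bases before the start in NOP10. It lies farther upstream in UTP18 (89 bases), IMP4 (203 bases) and UTP14A (241 bases). DDX21 has another window, chr10:68955920-68956219, at the start of the gene, and that window holds 0 copies. The DDX21 stretch shown lies downstream of that start, within the gene. A match of these letters is a description of the sequence and not a measured binding site.

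The targeted genes and the markers were checked first. ERG intensity fell with siERG from 1031 ± 82.3 to 576 ± 13.5 with EtOH and from 1188 ± 24.9 to 548 ± 17.5 with DHT (mean ± SD, n = 3), and ETV1 fell with shETV1 from 1149 ± 103 to 745 ± 28.5 and from 1294 ± 31.0 to 835 ± 49.6. The androgen target FKBP5 rose with DHT by 1.90 log2 units in siControl and 3.52 in shControl cells, and KLK3, which codes for prostate-specific antigen, by 0.61 and 2.47. In LNCaP KLK3 also fell with shETV1, by 1.29 with EtOH and by 0.49 with DHT. Of 12 luminal epithelial markers 10 had a probe set, and all 10 lay above the array median on every array of 7 groups and 9 in the shETV1 EtOH group (KLK2 did not). Of 16 markers of fibroblasts, endothelium, leukocytes and red cells 14 had a probe set. Between 2 and 5 of these 14 lay above the array median in a group, VIM and COL1A1 in all 8, and their summed intensity ran from 845 to 1342 per array. The leukocyte marker PTPRC read 8.5 to 49.2 and the endothelial marker PECAM1 31.8 to 58.9 over all arrays, beside array medians of 42.7 to 53.2. Other markers of these cells read higher. LYZ, of leukocytes, read 315 to 384 with EtOH and 375 to 449 with DHT in siControl cells. In siERG cells it read 117 to 179 and 165 to 208, and in shControl cells with EtOH 3.3 to 10.8. VWF, of endothelium, read 74.1 to 105 in siControl and 138 to 146 in shETV1 cells with EtOH. The sum was lower with DHT in LNCaP (942 to 989 against 1108 to 1195 in shControl cells) and with siERG in VCaP (981 to 1131 against 1152 to 1342), and its part in the results below was not tested.

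Intensities of the 41 genes spanned about 2 orders of magnitude, with group means from 136 (GRWD1) to 11849 (NPM1) in VCaP and from 122 to 12366 for the same genes in LNCaP. Values of different probe sets depend on their binding, so they rank no gene against another. Changes are given in log2 units of intensity plus 16, with the standard error of limma, a linear model with moderated variances. A gene is said to rise or fall when its p-value, adjusted over all genes tested in that comparison with the Benjamini-Hochberg method, was below 0.05. In RNA from a whole culture, a change in every cell and a change in some of the cells cannot be told apart.

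With DHT, genes that passed the threshold rose in LNCaP and went in both directions in VCaP. In LNCaP shControl cells 18 of 41 rose and 0 fell, and in shETV1 cells 22 rose and 0 fell, where 40.8% and 37.9% of all genes changed. In VCaP siControl cells 4 rose and 8 fell, and in siERG cells 13 rose and 3 fell. For comparison, 18.6%, 18.8%, 19.6% and 20.1% of all genes tested rose in these 4 comparisons, and 22.3%, 19.0%, 25.4% and 25.2% fell. Either knockdown alone changed 1 to 3 of the 41, where 11.2% and 8.97% of all genes changed with siERG (EtOH and DHT) and 4.20% and 5.19% with shETV1. With array weights siERG changed 9 and 12 of the 41. The shares of all genes above come from the fit without weights, so these counts cannot be set beside them. DDX21 rose in all 4 DHT comparisons, and 11 genes (DDX52, GAR1, HEATR1, NCL, NOP10, NPM1, PES1, RRN3, TSR1, UTP18 and WDR75) passed the threshold in none of the comparisons within a line on the probe sets chosen. With all probe sets fitted, 2 of 3 for NPM1 fell with DHT in siControl (-0.37 to -0.08) and siERG cells (-0.23 to 0.00). For NCL 1 of 2 rose in both (-0.12 to 0.49 and -0.02 to 0.41). For TSR1 2 of 4 rose with DHT in siERG and shETV1 and 1 in shControl cells. For DDX52 1 of 3 rose in siControl and siERG and 1 fell in shETV1 cells. For HEATR1 1 of 4 rose in siERG cells.

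**Figure D1:**
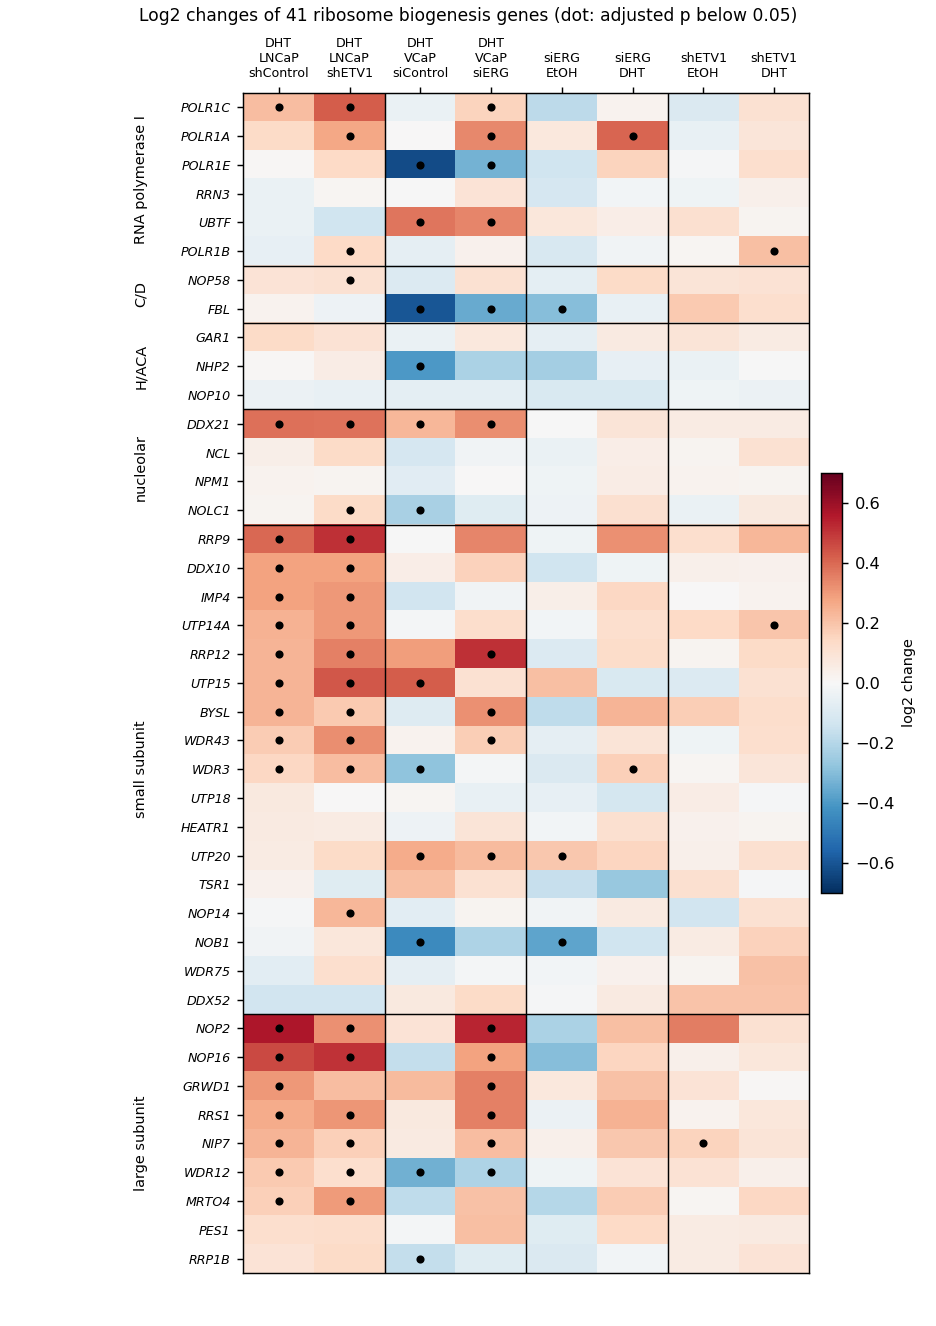
Log2 change of each of the 41 genes (rows, grouped by role) in the 4 DHT comparisons and the 4 knockdown comparisons (columns). Red is higher and blue is lower in the treated or knockdown group, and a dot marks an adjusted p below 0.05: the 2 LNCaP DHT columns hold 18 and 22 dots, all red, while the VCaP siControl column holds 4 red and 8 blue ones.

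**Figure D2:**
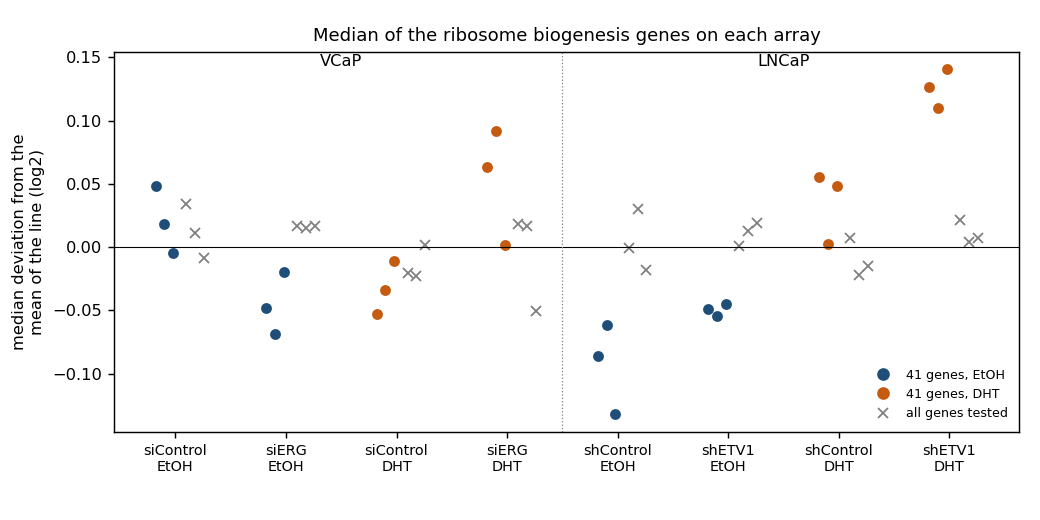
Median, over the 41 genes (circles) and over all genes tested (crosses), of the deviation of each array from the mean of its line in log2 units, for the 3 arrays of each group. In LNCaP the DHT arrays lie from 0.00 to 0.14 and the EtOH arrays from -0.13 to -0.04, and in VCaP the siERG arrays lie below 0 with EtOH and above 0 with DHT.

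In LNCaP shControl cells the largest rises with DHT were in genes of large subunit assembly, of which 7 of 9 measured rose. NOP2, a methyltransferase of large subunit ribosomal RNA, read 531, 626 and 425 with EtOH and 819, 751 and 774 with DHT. The groups did not overlap, and the change was 0.57 ± 0.11 (1.48-fold, adjusted p = 0.00176). NOP16, a nucleolar protein of large subunit precursors, read 1163, 1189 and 1129 with EtOH and 1704, 1586 and 1529 with DHT, so every DHT array was above every EtOH array. Its change was 0.46 ± 0.05 (1.38-fold, adjusted p = 1.22e-05). GRWD1, a WD-repeat protein of large subunit assembly, rose by 0.30 ± 0.10 (adjusted p = 0.0309), although its groups overlapped. RRS1, NIP7, WDR12 and MRTO4 rose by 0.26, 0.24, 0.18 and 0.17, while PES1 (0.12) and RRP1B (0.10) did not pass.

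Of the 17 genes of small subunit processing 9 rose in shControl cells. RRP9, a protein of the U3 particle that starts cleavage of the precursor, read 134, 127 and 119 with EtOH and 184, 164 and 169 with DHT. That is a change of 0.40 ± 0.09 (adjusted p = 0.0029) with no overlap. DDX10, an RNA helicase, and IMP4, another protein of the U3 particle, each rose by 0.28 (adjusted p = 0.0013 and 0.00128). UTP14A, RRP12, UTP15, BYSL, WDR43 and WDR3 rose by 0.14 to 0.25. The other 8 genes, among them the endonuclease gene NOB1 (-0.02) and HEATR1 (0.07), did not pass.

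Of the 6 genes of RNA polymerase I and its factors 1 rose in shControl cells. POLR1C, a subunit that RNA polymerase I shares with RNA polymerase III, read 588, 566 and 582 with EtOH and 662, 652 and 711 with DHT, a rise of 0.22 ± 0.05 (adjusted p = 0.00291). POLR1A (0.14), POLR1B (-0.06), POLR1E (0.01), the ribosomal DNA-binding factor UBTF (-0.05) and the initiation factor RRN3 (-0.05) did not pass. None of the 5 measured snoRNA-particle genes passed, and FBL, for instance, read 2358, 2360 and 2022 with EtOH and 2372, 2216 and 2258 with DHT. DDX21, a nucleolar RNA helicase, read 3668, 3705 and 3616 with EtOH and 4658, 4825 and 4866 with DHT, a rise of 0.38 ± 0.04 (1.30-fold, adjusted p = 1.03e-05). The abundant nucleolar proteins NPM1 (0.03 ± 0.03) and NCL (0.04 ± 0.05) did not pass.

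In LNCaP shETV1 cells the response to DHT took in 17 of those 18 genes, which is 94.4% of the genes risen in shControl and 77.3% of the 22 risen in shETV1. RRP9 read 117, 155 and 147 with EtOH and 206, 199 and 210 with DHT (0.51 ± 0.09, 1.43-fold, adjusted p = 0.000634). NOP16 rose by 0.51 ± 0.05 (adjusted p = 6.46e-06) and UTP15, a protein of the complex that loads onto the nascent precursor, by 0.44 ± 0.05 (adjusted p = 4.44e-05). POLR1C read 533, 533 and 547 with EtOH and 763, 705 and 716 with DHT, a rise of 0.43 ± 0.05 (1.34-fold, adjusted p = 2.55e-05) with no overlap. RRP12, which acts in export and maturation of subunits, rose by 0.35, but its other tested probe set gave -0.33. The mean of all 5 RRP12 probe sets, filtered ones included, gave 0.19 (adjusted p = 0.0762). RRS1 rose by 0.31, NOP2 by 0.32 and DDX21 by 0.38. POLR1A (0.27), the second-largest subunit gene POLR1B (0.14), NOLC1 (0.13), NOP58 (0.11) and NOP14 (0.23) passed here. No gene differed between shControl and shETV1 in its DHT response by limma (0 of 41, against 0.101% of all genes tested, 0.0780% higher and 0.0234% lower). At an unadjusted p below 0.05 there were 5 of the 41, and the share of all genes at that level was not counted.

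By array groups, 24 of the 41 genes in shControl and 28 in shETV1 had every DHT array above every EtOH array, against 22.7% and 25.1% of all genes, and 1 gene in either had every DHT array below, against 27.1% and 25.2%. The median change was 0.12 and 0.14, beside -0.01 and -0.00 over all genes tested. With quantile normalization 14 genes rose and DDX52 fell in shControl, and 17 rose and DDX52 fell in shETV1. In shETV1 UBTF fell when all probe sets of a gene were averaged and POLR1B no longer passed (0.05, adjusted p = 0.507), and NOP16 no longer passed in shControl (0.11, adjusted p = 0.166). Leaving out 1 array ended the rise of GRWD1 in shControl without EtOH array A or C or DHT array A or C (changes of 0.25 to 0.40, adjusted p up to 0.109). Without shControl EtOH array C UBTF fell in shControl, and without shETV1 EtOH array B DDX52 fell in both. In shETV1 the rise of NOP2 was lost without any 1 of 10 arrays (all but shControl EtOH B and C, 0.26 to 0.36, adjusted p up to 0.144). That of POLR1A was lost without EtOH B or C or DHT A or C (up to 0.117), of NOP58 without any shETV1 array (up to 0.0928), and of POLR1B without shControl EtOH A or any shETV1 array but EtOH B (up to 0.139).

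In VCaP siControl cells 12 of 41 genes changed with DHT, against 45.0% of all genes. Of the 6 genes of RNA polymerase I and its factors 1 rose and 1 fell. POLR1E, a subunit of RNA polymerase I, read 406, 412 and 400 with EtOH and 251, 278 and 244 with DHT, so all DHT arrays lay below all EtOH arrays. Its change of -0.63 ± 0.06 (1.55-fold lower, adjusted p = 1.61e-05) was the largest of the 41 genes on the probe sets chosen. UBTF read 778, 719 and 665 with EtOH and 951, 851 and 1019 with DHT, a rise of 0.37 ± 0.07 (adjusted p = 0.00157). POLR1A (0.00), POLR1B (-0.06), POLR1C (-0.05) and RRN3 (-0.00) did not pass. With all probe sets fitted, the 3 of POLR1A ran from -0.05 to 0.64, and 1 of them rose. Those of WDR12, a gene of large subunit assembly, ran from -0.74 to -0.02, and 2 of 3 fell.

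Both kinds of snoRNA particle held a gene that fell in siControl cells. FBL read 3005, 2955 and 2963 with EtOH and 1850, 1953 and 2084 with DHT, a change of -0.60 ± 0.06 (1.51-fold lower, adjusted p = 1.72e-05) with a wide gap between the groups. NHP2, a core protein of box H/ACA particles, read 5932, 5326 and 5515 with EtOH and 4137, 4150 and 4370 with DHT, a change of -0.40 ± 0.09 (adjusted p = 0.00466). NOP58, GAR1 and NOP10 lay between -0.09 and -0.05 and did not pass. NOLC1, a chaperone of such particles, fell by 0.23 ± 0.06 (adjusted p = 0.00742), whereas DDX21 rose by 0.23 ± 0.07 (adjusted p = 0.0239).

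Among the assembly genes of siControl cells both directions were seen. NOB1, the endonuclease that finishes the small subunit RNA, read 710, 647 and 637 with EtOH and 475, 451 and 526 with DHT (-0.45 ± 0.10, adjusted p = 0.00419). WDR3, of the small subunit processome, fell by 0.28 ± 0.04 (adjusted p = 0.000287). UTP15 read 172, 179 and 162 with EtOH and 216, 255 and 234 with DHT, a rise of 0.42 ± 0.08 (adjusted p = 0.00094), and UTP20, a scaffold protein of the same processome, rose by 0.26 ± 0.05 (adjusted p = 0.0019). In the large subunit group WDR12, a partner of PES1 in precursor processing, read 1400, 1326 and 1360 with EtOH and 1076, 1126 and 1019 with DHT, a change of -0.34 ± 0.05 (adjusted p = 0.00038). RRP1B fell by 0.17 ± 0.06 (adjusted p = 0.0468), and the other 7, NOP2 (0.10) and NOP16 (-0.17) included, did not pass.

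By array groups 5 of the 41 genes had every DHT array above and 13 every DHT array below the EtOH arrays, against 25.1% and 31.8% of all genes, and the median change was -0.05 beside -0.03 over all genes. The rise of DDX21 was lost without siControl EtOH B or C or siControl DHT A or C (0.14 to 0.31, adjusted p up to 0.0754). The fall of RRP1B was lost without any 1 of 9 arrays (all but siControl EtOH C, siERG EtOH B and siERG DHT C, adjusted p up to 0.171). Averaging all probe sets ended the calls of UBTF (0.16, adjusted p = 0.174), DDX21 (adjusted p = 0.0516), NOLC1 (adjusted p = 0.0532) and RRP1B (-0.05, adjusted p = 0.669) and turned WDR3 to 0.08.

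**Figure D3:**
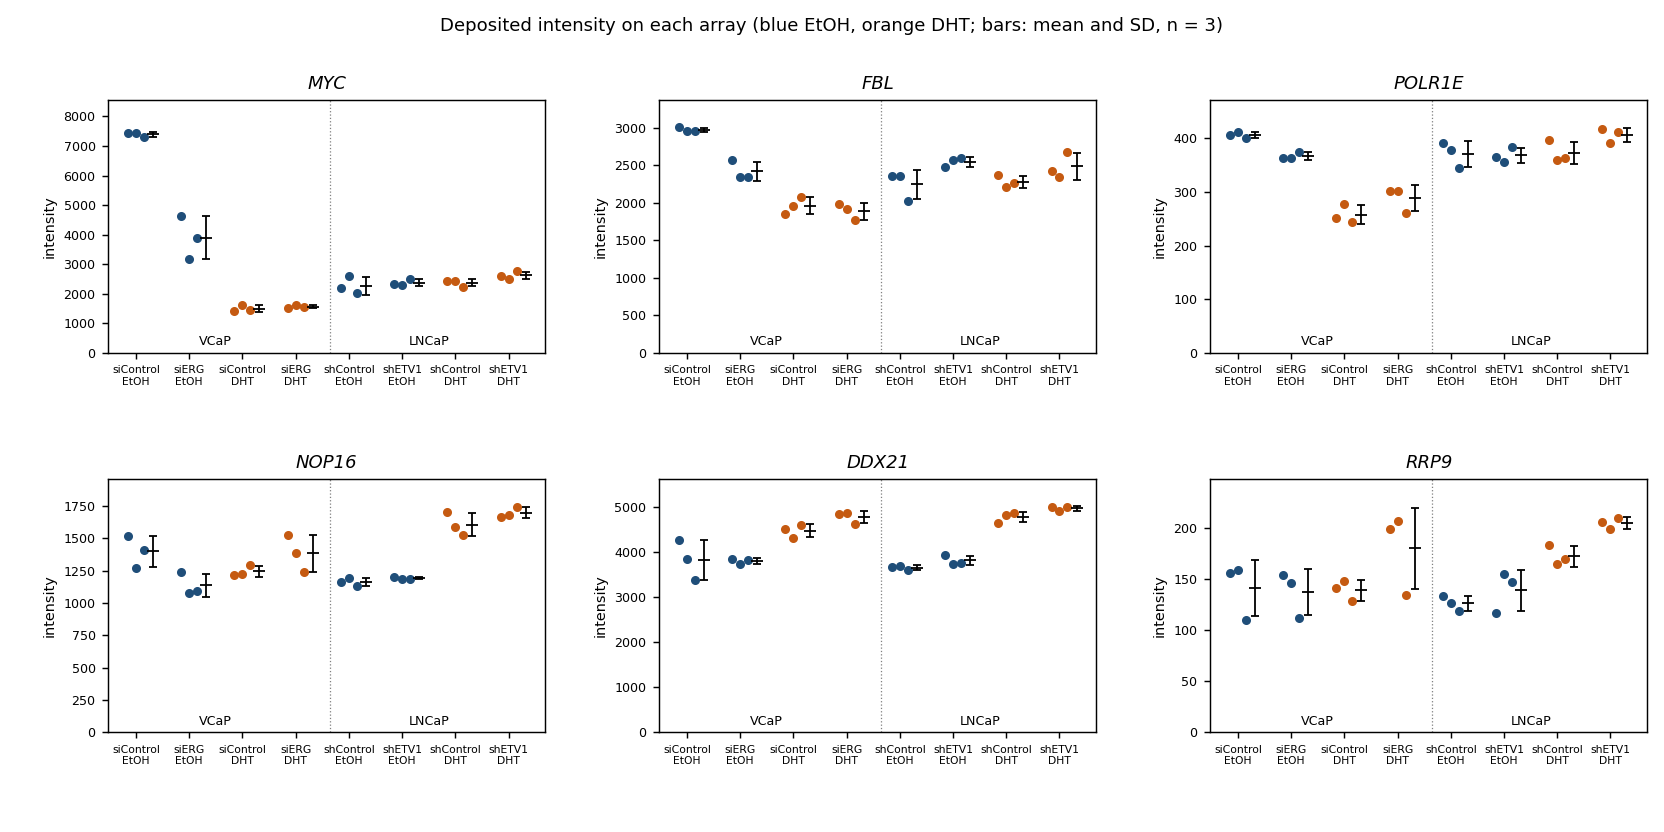
Deposited intensity of MYC and 5 of the genes on each array (points, blue with EtOH and orange with DHT) with the mean and SD of 3 arrays (bars), from 0 on a linear axis. MYC, FBL and POLR1E are lower with DHT in VCaP and not in LNCaP, whereas NOP16 and RRP9 are higher with DHT in LNCaP and DDX21 in both lines.

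After siERG the response of VCaP to DHT held 13 rises and 3 falls, against 45.3% of all genes changed. Every DHT array lay above every EtOH array for 16 genes and below for 6, against 22.8% and 29.3% of all genes. NOP2 read 568, 582 and 552 with EtOH and 863, 865 and 760 with DHT, a rise of 0.53 ± 0.07 (1.45-fold, adjusted p = 7.06e-05) with no overlap. RRP12 read 310, 264 and 322 with EtOH and 483, 429 and 387 with DHT (0.51 ± 0.13, adjusted p = 0.0076), but its other tested probe set fell by 0.24. The mean of all 5 RRP12 probe sets gave -0.00. GRWD1 rose by 0.36, RRS1 by 0.35, DDX21 by 0.33, BYSL, which acts late in small subunit assembly, by 0.32, and UTP20 by 0.22. UBTF (0.34), the largest-subunit gene POLR1A (0.34) and POLR1C (0.16) rose too, and NOP16, NIP7 and WDR43 rose by 0.28, 0.21 and 0.17. The falls were those of FBL (-0.35 ± 0.06, adjusted p = 0.000723), POLR1E (-0.33 ± 0.06, adjusted p = 0.00141) and WDR12 (-0.22 ± 0.05, adjusted p = 0.00655), each also called in siControl cells. With all probe sets of a gene averaged, UBTF (0.09, adjusted p = 0.467), POLR1A (0.13, adjusted p = 0.511) and POLR1E (-0.23, adjusted p = 0.0557) no longer passed.

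One measure of RNA quality moved with this result, among others. The ratio of 3′ to 5′ GAPDH signal was 1.09 ± 0.0237 (SD, n = 3) with EtOH and 1.03 ± 0.00728 with DHT in siERG cells (exact permutation p = 0.1, the smallest 3 against 3 arrays can give), and with this ratio as a covariate 3 genes were called, 1 up and 2 down. Its part in the 16 calls cannot be told apart from that of DHT with these arrays. Centring each array on its median gave 21 rises and 3 falls, and over all genes it turned 2576 rises and 3238 falls into 3436 and 2450. Without siERG EtOH array B 10 genes were called. The rise of BYSL was lost without siERG EtOH B or C or siERG DHT A or B (adjusted p up to 0.0916), of POLR1A without siERG EtOH A or B or siERG DHT C (up to 0.0946), and of POLR1C without any 1 of 6 arrays, namely siControl EtOH A, siERG EtOH B or C, siControl DHT C and siERG DHT A or B (up to 0.126).

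The difference between siERG and siControl cells in the DHT response was above 0 for 35 of the 41 genes, whereas 48.8% of all genes lay below 0. Its median was 0.13 beside 0.00 over all genes. The difference passed for none by limma (0 of 41, against 0.288% of all genes, 0.0623% higher and 0.226% lower). At an unadjusted p below 0.05 there were 11 of the 41, and the share of all genes at that level was not counted. NOP16 had the largest difference, 0.45 ± 0.12 (adjusted p = 0.225), and NOP2 the smallest adjusted p (0.44 ± 0.09, adjusted p = 0.105), followed by WDR3 (0.27 ± 0.06, adjusted p = 0.118). Without siERG DHT array C 2 genes passed, and with array weights 4. The shares of all genes at these settings are not given here. In siControl cells the GAPDH ratio went from 1.05 ± 0.0128 with EtOH to 1.07 ± 0.00805 with DHT (SD, n = 3, exact permutation p = 0.1). In siERG cells it went the other way, from 1.09 to 1.03. The part of this ratio in the difference was not tested.

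With EtOH, siERG changed 3 of 41 genes, against 11.2% of all genes tested, of which 5.37% rose and 5.87% fell. FBL read 3005, 2955 and 2963 in siControl and 2568, 2345 and 2341 in siERG cells, a change of -0.30 ± 0.06 (1.23-fold lower, adjusted p = 0.0107) with no overlap. NOB1 read 561, 494 and 478 in siERG cells against 637 to 710 in siControl cells (-0.37 ± 0.10, adjusted p = 0.0404), and UTP20 rose by 0.19 ± 0.05 (adjusted p = 0.0422). In all 34 of the 41 lay below 0, beside 47.8% of all genes, and 14 had every siERG array below every siControl array and 2 above, against 17.4% and 17.7% of all genes. These values share the siControl EtOH arrays with the DHT response of siControl cells and the siERG EtOH arrays with that of siERG cells, so FBL and NOB1 are not independent results there.

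The calls of siERG with EtOH depended on single arrays. Without siControl EtOH C, siERG EtOH B or C, or siControl DHT A 1 gene was called, and without siERG DHT C 9 were. NOB1 was lost without any 1 of 6 arrays (any siControl EtOH array, siERG EtOH B or C, or siControl DHT A, adjusted p up to 0.131) and UTP20 without any 1 of 10 (all but siControl EtOH A and siERG DHT C, up to 0.135). Centring arrays on their median gave 0 rises and 7 falls here, and over all genes 393 rises and 1167 falls in place of 690 and 754. With the GAPDH ratio as a covariate, which was 1.09 ± 0.0237 in siERG and 1.05 ± 0.0128 in siControl cells (exact permutation p = 0.1), none was called, FBL included (adjusted p = 0.324).

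With DHT, siERG raised 2 genes and lowered 0, against 8.97% of all genes changed, 3.79% up and 5.18% down. POLR1A read 227, 231 and 236 in siControl and 297, 279 and 365 in siERG cells (0.41 ± 0.11, 1.32-fold, adjusted p = 0.0439), and WDR3 rose by 0.17 ± 0.04 (adjusted p = 0.0327). The GAPDH ratio was 1.03 ± 0.00728 in siERG and 1.07 ± 0.00805 in siControl cells and the matching ACTB ratio 2.84 ± 0.308 and 3.5 ± 0.0571 (SD, n = 3, exact permutation p = 0.1 each). With the GAPDH ratio as a covariate neither gene passed (POLR1A 0.56, adjusted p = 0.16, and WDR3 0.22, adjusted p = 0.164), nor with the ACTB ratio (0.41, adjusted p = 0.167, and 0.17, adjusted p = 0.14). Neither passed with all probe sets averaged (POLR1A 0.15, adjusted p = 0.618, and WDR3 0.07, adjusted p = 0.781). Every siERG array lay above every siControl array for 12 genes and below for 2, against 12.6% and 12.3% of all genes. Without siERG DHT C 6 genes were called, and without any 1 of 9 others (all arrays but siControl EtOH B and siERG EtOH C) 0 or 1. POLR1A was lost without siControl EtOH C, siERG EtOH A or B, any siControl DHT array, or siERG DHT A or C (adjusted p up to 0.118). WDR3 was lost without siControl EtOH A, siERG EtOH A or B, siControl DHT A or C, or siERG DHT A or B (up to 0.123).

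ETV1 knockdown in LNCaP raised NIP7, a gene of large subunit assembly, with EtOH (0.16 ± 0.04, adjusted p = 0.0461), against 4.20% of all genes changed, 1.22% up and 2.97% down. With EtOH 9 genes had every shETV1 array above every shControl array and 5 below, against 10.8% and 13.3% of all genes. With DHT it raised POLR1B, from 544, 558 and 585 to 642, 657 and 660 (0.21 ± 0.05, adjusted p = 0.0289), and UTP14A (0.20 ± 0.05, adjusted p = 0.0444), against 5.19% of all genes, 2.68% up and 2.50% down. No gene fell in either. With DHT 14 genes had every shETV1 array above every shControl array and 0 below, against 15.9% and 10.6% of all genes. NIP7 was lost without any 1 of 11 arrays (all but shETV1 DHT C, adjusted p up to 0.154), UTP14A without any 1 of 11 (all but shControl EtOH B, up to 0.138), and POLR1B without shControl DHT A or B or any shETV1 DHT array (up to 0.094). POLR1B also turned to -0.13 when the probe sets that may bind other transcripts were left out. Over all genes with DHT, centring arrays moved 344 rises and 321 falls to 224 and 484. With DHT the GAPDH ratio was 1.08 ± 0.00897 in shETV1 and 1.09 ± 0.00259 in shControl cells (SD, n = 3, exact permutation p = 0.1). With this ratio as a covariate neither POLR1B nor UTP14A passed.

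The response of control cells to DHT differed between the lines for 18 of the 41 genes, 17 of them higher in LNCaP, against 31.9% of all genes changed and 17.6% higher. The difference is that of the log2 changes, LNCaP minus VCaP. It was 0.64 ± 0.09 for POLR1E (adjusted p = 9.1e-06), 0.63 ± 0.10 for NOP16 (adjusted p = 6.1e-05) and 0.62 ± 0.09 for FBL (adjusted p = 2.89e-05). These values came about differently: POLR1E and FBL fell in VCaP by 0.63 and 0.60 beside 0.01 and 0.03 in LNCaP, whereas NOP16 rose by 0.46 in LNCaP beside -0.17 in VCaP, which did not pass. WDR12 and WDR3 passed in both lines in opposite directions, with differences of 0.52 ± 0.06 (adjusted p = 1.97e-06) and 0.43 ± 0.06 (adjusted p = 2.66e-05). UBTF was the gene with a lower response in LNCaP (-0.42 ± 0.14, adjusted p = 0.0309). Its difference was lost without any 1 of 8 arrays (siControl EtOH B or C, siControl DHT A or C, shControl EtOH A or B, shControl DHT A or B, adjusted p up to 0.0951). With all probe sets of a gene averaged 11 genes differed, and NOP16 (0.17, adjusted p = 0.166), UBTF (-0.18, adjusted p = 0.185) and WDR3 (0.03, adjusted p = 0.9) were not among them. The lines differ in their knockdown reagents and may have been processed apart, so line and processing cannot be told apart in levels, which were not compared.

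**Figure D4:**
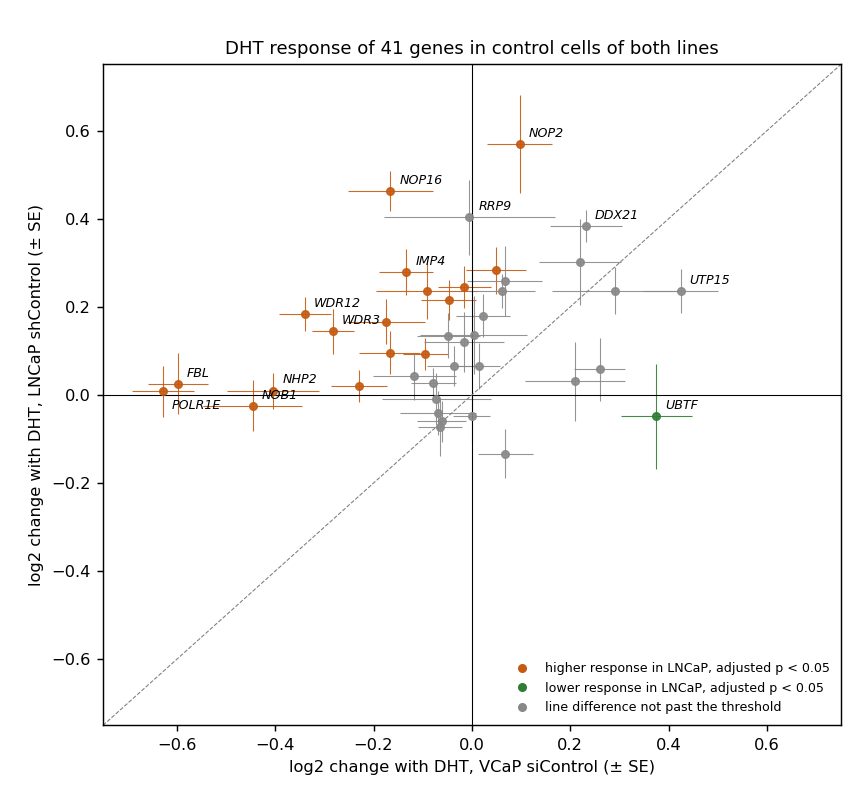
Log2 change with DHT in VCaP siControl cells (x axis) and LNCaP shControl cells (y axis) of the 41 genes, with standard errors. The 17 orange genes had a higher response in LNCaP and UBTF, in green, a lower one; DDX21 and UTP15 rose in both lines, and POLR1E and FBL lie far left at -0.63 and -0.60, near 0 on the y axis.

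In knockdown cells the DHT response differed for 12 genes, 10 of them higher in LNCaP. Of all genes 31.6% differed, 18.4% higher and 13.2% lower. POLR1E (0.47 ± 0.09, adjusted p = 0.000264), WDR12 (0.33 ± 0.06, adjusted p = 0.000354) and IMP4 (0.33 ± 0.07, adjusted p = 0.00215) stood highest with UTP15 (0.33), and UBTF (-0.48) and DDX52 (-0.27) were lower. The knockdown effect with EtOH differed for 5 genes, against 9.56% of all genes, 4.16% higher and 5.40% lower: NOP2 (0.58 ± 0.13, adjusted p = 0.00852), FBL (0.48 ± 0.09, adjusted p = 0.00211), NOB1 (0.43), NOP16 (0.33) and UTP15 (-0.31). With DHT it differed for POLR1B alone (0.23 ± 0.07, adjusted p = 0.0321), against 7.50% of all genes. Since ERG was lowered in one line and ETV1 in the other, these differences set unlike knockdowns side by side. With probe sets averaged 6 genes differed in knockdown cells. POLR1E (0.29, adjusted p = 0.144), UBTF (-0.20, adjusted p = 0.137), DDX52 (-0.13, adjusted p = 0.27), POLR1C (0.18, adjusted p = 0.0914) and WDR3 (0.27, adjusted p = 0.211) then did not pass, and RRP1B turned to -0.07. NOP16 in the knockdown effect with EtOH went to 0.02 (adjusted p = 0.925) and POLR1B with DHT to -0.03. In knockdown cells NHP2 was lost without any 1 of 18 arrays (adjusted p up to 0.116) and RRP1B without any 1 of 8 (up to 0.0998).

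For the knockdown effects, 2 genes were called with EtOH without siControl EtOH A, siERG EtOH B or C, or shControl EtOH C, and 3 without shControl EtOH A or shETV1 EtOH A or C. POLR1B was lost without siControl DHT A or C, siERG DHT A, shControl DHT A or B, or shETV1 DHT B or C (adjusted p up to 0.09). NOB1 was lost without any 1 of 5 arrays, UTP15 of 9 and NOP16 of 10 (adjusted p up to 0.0757, 0.0967 and 0.114).

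MYC intensity was measured on the same arrays. It read 7454, 7434 and 7309 in siControl cells with EtOH and 1413, 1623 and 1440 with DHT, a change of -2.30 ± 0.11 (4.93-fold lower, adjusted p = 7.32e-08). With siERG it read 4615, 3165 and 3892 with EtOH, a change of -0.94 ± 0.11 against siControl (adjusted p = 0.000499), and 1528, 1615 and 1538 with DHT. In LNCaP it read 2009 to 2590 with EtOH and 2240 to 2437 with DHT in shControl cells (0.07 ± 0.08, adjusted p = 0.526), and it passed in none of the LNCaP comparisons. Side by side, the DHT comparison with the largest fall of MYC held 8 falls and 4 rises among the 41 genes, that in siERG cells (MYC -1.29) 3 and 13, and those in LNCaP (MYC 0.07 and 0.14) 0 and 18 and 0 and 22. Over all genes 25.4% fell and 19.6% rose in siControl cells, and 25.2% and 20.1% in siERG cells. In LNCaP 22.3% fell and 18.6% rose in shControl cells, and 19.0% and 18.8% in shETV1 cells. Of the 41, 29.3% changed in siControl cells, beside 45.0% of all genes. In siControl cells with DHT 26 of the 41 lay below 0, beside 54.3% of all genes. In shControl and shETV1 cells 33 and 36 of the 41 lay above 0, whereas 52.6% and 50.6% of all genes lay below 0. With siERG and EtOH, where MYC fell by 0.94, 2 of 41 fell and 1 rose, beside 5.87% and 5.37% of all genes. There 34 of the 41 lay below 0, beside 47.8% of all genes, and 14 had every siERG array below every siControl array, beside 17.4%. Comparisons within a line share arrays, so no relation was computed over them.

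The calls were also counted by the CACGTG motif. Of the 15 measured genes with the motif 8 rose with DHT in shControl cells, and of the 19 with a window and without it 8 rose. In shETV1 cells these counts were 9 and 9, in siERG cells 5 and 6, and in siControl cells 2 and 2, with 1 and 4 falls in siControl. Over all genes tested 18.6% rose in shControl, 18.8% in shETV1, 20.1% in siERG and 19.6% in siControl cells, and 25.4% fell in siControl cells. The medians with and without the motif were 0.17 and 0.07 in shControl, 0.23 and 0.13 in shETV1, 0.17 and 0.10 in siERG and -0.02 and -0.05 in siControl cells. Of the genes shown above, IMP4, NOP10 and UTP18 hold 2 copies each within their windows. IMP4 rose in both LNCaP comparisons, as did DDX21 and UTP14A, while NOP10 and UTP18 passed in no comparison within a line.

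The rest of the pathway was read from lists of further genes. With DHT 18.6% of all genes rose and 22.3% fell in shControl cells, and 18.8% and 19.0% in shETV1 cells. In siERG cells 20.1% rose and 25.2% fell, and in siControl cells 19.6% and 25.4%. Of 34 other genes of small subunit processing 16 rose and 1 fell with DHT in shControl, 18 and 1 in shETV1, 16 and 1 in siERG, and 6 and 2 in siControl cells. MPHOSPH10, another U3 particle protein, rose by 0.60 and 0.69 in shControl and shETV1, and DIMT1, a dimethyltransferase of small subunit RNA, fell there by 0.51 and 0.57. Of 44 other genes of large subunit assembly 19 rose and 1 fell in shControl, 18 and 0 in shETV1, 15 and 6 in siERG, and 12 and 11 in siControl. PAK1IP1 rose in all 4, from 607, 744 and 707 to 3955, 3886 and 3948 in shControl cells (2.50 ± 0.07, adjusted p = 4.73e-10) and by 0.84 ± 0.06 in siControl cells (adjusted p = 6.82e-07). NVL, an ATPase that releases assembly factors, fell in siControl (-0.72), siERG (-0.61) and shControl cells (-0.30), and DDX31, a helicase gene, in siControl (-0.60) and siERG (-0.35).

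Of 14 other RNA polymerase I genes 3 rose and 1 fell in shControl and 4 and 1 in shETV1, against 3 and 2 in siControl and 1 and 2 in siERG. The 14 include POLR2E, POLR2F, POLR2H, POLR2K and POLR2L, whose products also serve RNA polymerases II and III. Over all genes 18.6% rose and 22.3% fell in shControl and 18.8% and 19.0% in shETV1 cells. In siControl these shares were 19.6% and 25.4%, and in siERG cells 20.1% and 25.2%. POLR1D, a subunit shared with RNA polymerase III, fell in all 4 (-0.37, -0.32, -0.62 and -0.59 in that order). Of 13 genes of RNA polymerase III and its factors 6 rose and 4 fell, 4 and 2, 2 and 4, and 1 and 4. POLR3G, which codes for 1 of 2 alternative subunits, fell in all 4, from 494, 508 and 467 to 136, 99.9 and 128 in siControl cells (-1.89 ± 0.12, adjusted p = 6.75e-07), and POLR3E rose in all 4 by 0.72 to 0.81. The RNA exosome, which trims ribosomal RNA ends, showed 2 rises and 3 falls of 12 in shControl, 4 and 2 in shETV1, 3 and 3 in siControl, and 4 and 2 in siERG. EXOSC3 rose by 0.41 and 0.53 in the 2 LNCaP comparisons, and EXOSC5 fell in siControl (1.99-fold lower).

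Genes of the ribosomal proteins themselves moved little. The counts here stand beside rises of 18.6%, 18.8%, 19.6% and 20.1% of all genes in shControl, shETV1, siControl and siERG cells. Falls over all genes were 22.3%, 19.0%, 25.4% and 25.2% in the same order. Of 52 tested 1 rose and 0 fell in shControl and in shETV1, 1 rose and 3 fell in siControl and 1 and 1 in siERG, with medians from -0.00 to 0.01. RPL36AL was the gene that rose in all 4 (0.18 to 0.32). Of 10 genes of the MYC network 3 rose and 2 fell in shControl, 2 and 2 in shETV1, 2 and 4 in siControl, and 2 and 3 in siERG. This list holds MYC itself, whose falls are counted in siControl and siERG cells. MXI1, which codes for a repressor that shares MYC's partner MAX, fell in all 4 by 0.30 to 0.77, and MLX rose in all 4 by 0.38 to 0.48. Of 21 other genes known as MYC targets 7 rose and 0 fell in shControl, 8 and 0 in shETV1, 7 and 1 in siERG, and 6 and 5 in siControl. ODC1, the entry enzyme of polyamine synthesis, rose in siControl cells by 1.51 while MYC fell, and by 0.68 in shControl cells.

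With siERG and EtOH, where 5.37% of all genes rose and 5.87% fell, 1 of the 44 other genes of large subunit assembly rose and 5 fell. In small subunit processing 0 rose and 2 fell of 34, and among the other RNA polymerase I genes 1 and 1 of 14. In the MYC network, MYC itself included, 0 rose and 2 fell of 10, and among the other MYC targets 1 and 2 of 21. The ribosomal proteins (52), the RNA exosome (12) and RNA polymerase III (13) held 0 calls by limma.

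RNA45SN5, the gene annotated for the precursor transcript, was chosen after its values were seen. Its probe set was not placed on the precursor, so signal from the mature ribosomal RNAs cannot be told apart. It read 1001, 1124 and 1080 with EtOH and 1345, 1216 and 1350 with DHT in shControl cells, a rise of 0.28 ± 0.06 (adjusted p = 0.00184), and it rose by 0.22 in shETV1 (adjusted p = 0.00821) and 0.23 in siERG cells (adjusted p = 0.0101). In siControl cells the change was -0.04 (adjusted p = 0.614), and siERG lowered it with EtOH by 0.24 ± 0.06 (adjusted p = 0.0345). A second probe set went from 725 ± 22.6 to 576 ± 45.2 with DHT in siControl cells and from 579 ± 53.4 to 609 ± 59.5 in siERG cells (mean ± SD, n = 3), so both probe sets do not tell the same in VCaP. In shControl cells it went from 501 ± 65.1 to 628 ± 26.5. Labelling for such arrays usually starts from poly(A) tails, and the output of ribosomal RNA was not measured here.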

How the data were processed

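Per the labels, 24 arrays were hybridised with cRNA from Trizol-extracted total RNA. The authors deposited 1 intensity value per probe set on a linear scale; how background and scale were set is not given in the sources at hand. Of 54675 probe sets 41097 named 1 gene in GEO's platform annotation, and the one with the highest mean stood for each of 19775 genes; 15 of the 41 members rest on probe sets that may bind other transcripts (suffix _x or _s). The log2 of intensity plus 16 was fitted with limma 3.58.1 in R 4.3.3, in 1 model of 4 groups per line. Line differences came from a model of all 24 arrays. Genes above the array median on at least 3 of the 12 arrays of a line were tested (12840 in VCaP, 12823 in LNCaP, 12305 in both), and p-values were adjusted with the Benjamini-Hochberg method over all of them. The script was tested on simulated data. Named in each comparison and role group were up to 3 risen and 3 fallen genes, beside genes that rose in one comparison and fell in another, and reference genes; from each further list up to 2 risen and 2 fallen. Other members are given by name and value after their values were seen. The members and lists were chosen with earlier results of these data known. Replicates are labelled biological, without further detail. Replicate letters did not pair the arrays (correlations of same-letter deviations from -0.117 to 0.125). Alternatives changed the probe set choice, filter, scaling, offset, variance model, weights, arrays fitted, pairing and RNA quality covariates.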

Additional observations from a re-analysis of the deposited data

Results flagged for a closer look

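Each value here is a difference between the lines in a log2 change, LNCaP minus VCaP, that passed the test of the difference itself (limma on 24 arrays, adjusted p below 0.05). In the DHT response of control cells it was 0.64 for POLR1E, 0.63 for NOP16, 0.62 for FBL, 0.52 for WDR12, 0.47 for NOP2, 0.43 for WDR3, 0.42 for NOB1, 0.41 for NHP2 and for IMP4, 0.26 for POLR1C, 0.25 for NOLC1, 0.19 for NOP58 and -0.42 for UBTF. In the DHT response of knockdown cells it was 0.47 for POLR1E, 0.33 for WDR12, UTP15 and IMP4, 0.32 for FBL, 0.28 for NHP2, 0.27 for POLR1C, 0.23 for WDR3, 0.22 for RRP1B and for NOLC1, -0.27 for DDX52 and -0.48 for UBTF. In the knockdown effect with EtOH it was 0.58 for NOP2, 0.48 for FBL, 0.43 for NOB1, 0.33 for NOP16 and -0.31 for UTP15, and with DHT it was 0.23 for POLR1B. The comparisons share arrays within a line, so a gene met in several of them is not independent support. The lines also differ in the factor lowered and in the kind of RNA used, and these cannot be told apart from the line.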

How the results depend on the processing

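The DHT comparisons kept their counts of called genes within 1.5 times of 12 in siControl (9 to 16), 18 in shControl (13 to 21) and 22 in shETV1 cells (16 to 27) under every alternative run, and that of 16 in siERG cells (13 to 24 otherwise) fell to 3 with the GAPDH ratio. Without single arrays these counts ran from 10 to 14, 13 to 19, 16 to 23 and, in siERG, 10 to 18. The knockdown effects were less stable. For siERG with EtOH (3 called) the counts were 1 with no filter, 6 with a filter at the 60th percentile, with quantile normalization, with trended variance and with all 24 arrays in the model, 5 with an offset of 64, 7 with centred arrays, 9 with array weights and 0 with the GAPDH ratio (1 to 9 without single arrays). For siERG with DHT (2 called) they were 0 with averaged probe sets, no filter and either the GAPDH or the ACTB ratio, 4 with trended variance and with all 24 arrays, and 12 with array weights (0 to 6 without single arrays). For shETV1 with EtOH (1 called) they were 0 with averaged probe sets, without probe sets that may bind other transcripts, with no filter, quantile normalization and the GAPDH or ACTB ratio, and 2 with trended variance, array weights and all 24 arrays (0 to 1 without single arrays). For shETV1 with DHT (2 called) they were 0 with averaged probe sets, without such probe sets, with no filter, quantile normalization and the GAPDH ratio, 1 with centred arrays and with the ACTB ratio, and 4 with trended variance and all 24 arrays (0 to 2 without single arrays); quantile normalization moved 344 rises and 321 falls of all genes to 218 and 429.

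The siERG and DHT interaction (0 called) gave 1 gene without such probe sets, with quantile normalization and with all 24 arrays, and 4 with array weights (0 to 2 without single arrays), and that of shETV1 gave 0 throughout. Between the lines, the knockdown effect with EtOH (5 called) gave 3 without such probe sets, 2 with no filter, 8 with centred arrays and 0 with the GAPDH ratio (2 to 6 without single arrays). With DHT (1 called) it gave 0 with averaged probe sets, without such probe sets, with no filter, quantile normalization, centred arrays and the ACTB ratio (0 to 1). The DHT response gave 11 of 18 in control (15 to 20 without single arrays) and 6 of 12 in knockdown cells (10 to 13) with averaged probe sets.

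The replicate letter as a block, which the arrays share as a letter only, gave 3, 2, 11, 17 and 0 called genes in the VCaP comparisons (siERG with EtOH, with DHT, DHT in siControl, in siERG, interaction). In LNCaP it gave 0 and 0 for shETV1, 18 and 17 for DHT and 0 for the interaction, and 5, 0, 19 and 10 between the lines (knockdown effect with EtOH and with DHT, DHT response of control and of knockdown cells).

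Averaging probe sets turned WDR3 to 0.0827 with DHT in siControl, RRP12 to -2e-04 with DHT in siERG, POLR1B to -0.0068 for shETV1 with DHT and to -0.0325 in its difference between lines, and RRP1B to -0.0667 between lines in knockdown cells. Without probe sets that may bind other transcripts POLR1B turned to -0.1301 and -0.0779, and with the GAPDH ratio BYSL turned to -0.0251 and POLR1C to -0.0115 with DHT in siERG. Of 84 named pairs of gene and comparison 60 kept their call without any 1 array and 31 under every alternative, and the causes of these changes were not tested. With 3 arrays per group the number of arrays limits the precision, and how the calls depend on signal over background was not tested.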
